A study of Homo sapiens with 7 samples.

Results

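The expression of 10 genes of glycolysis and glucose uptake was examined in human embryonic stem cells (hESCs) in which JMJD3c was induced with doxycycline (Dox). The genes were SLC2A1 and SLC2A3, HK2, PFKP, ALDOA, GAPDH, PGK1, ENO1, PKM and LDHA. They were picked by name among the 20404 gene names listed for each library, and all 10 were found. PGK1 had 2 entries, of which the entry with the highest mean was used, and every other gene had 1. The cells were of the hESC line SEES-3. Each line stably expressed the reverse Tet transactivator and carried a piggyBac construct with a Tet-responsive element that drives HA-tagged JMJD3c or its mutant, together with IRES-βgeo and a puromycin resistance gene under the PGK promoter. JMJD3c is a form of the histone H3K27 demethylase JMJD3, encoded by KDM6B. JMJD3c-hESCs were collected before Dox (Day 0) and on each of the 4 days after Dox was added at 1 µg/ml (Days 1 to 4). JMJD3c mut-hESCs, which carry a point mutant without catalytic activity, were collected without Dox and at Day 4 of Dox. The day of the untreated mutant library is not given. No later untreated library of JMJD3c-hESCs was available, so Dox and time cannot be told apart in that line. The lines were stable clones obtained by puromycin selection, so effects of the line and of the clone cannot be told apart. All cells were grown without feeders in StemFit AK-03 medium on iMatrix-511.

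Each of the 7 conditions had 1 library, so the differences lack a check against replicates and no p-value is given. The unit is FPKM, fragments per kilobase of transcript scaled to the number of mapped reads, which allows levels of different genes to be compared per length. Each value comes with the 95% interval of Cufflinks, which describes the precision within 1 library and not the variation between cultures. Mapped reads were estimated at 1780000 to 3660000 per library, with Day 0 the shallowest. The estimate takes the commonest low step in FPKM as 1 read, and since the files hold no counts its absolute size is uncertain. KDM6B was at 3.45 FPKM at Day 0 and between 158 and 282 FPKM at Days 1 to 4, and it went from 2.40 to 454 FPKM in the JMJD3c mut-hESCs. The transgenes hold part of the KDM6B sequence, and these values do not separate their reads from those of the endogenous gene. All 8 hESC markers examined, POU5F1 and NANOG among them, were above 1 FPKM in every library. Their summed level was 2357 FPKM at Day 0 and 1672 FPKM at Day 4, and 2184 and 1894 FPKM in the mutant line without and with Dox. The 8 mesoendoderm markers summed to 5.49 FPKM at Day 0 and 309.8 FPKM at Day 4, and to 10.9 and 7.83 FPKM in the mutant line. The 6 neuroectoderm markers, mainly OTX2 and SOX3, summed to 30.7 and 70.8 FPKM at Day 0 and Day 4 and to 22.9 and 15.2 FPKM in the mutant line. The 6 trophoblast markers summed to 2.99 to 6.45 FPKM per library, and the 6 fibroblast markers to 80.4 to 140.3 FPKM, nearly all of it THY1, which hESCs also express. The defining trophoblast markers CGA and GCM1 and the fibroblast markers LUM and DCN were listed at 0 in every library. Other members moved in opposite directions within the trophoblast sum. By Day 4 of Dox, KRT7 had dropped from 3.98 to 1.06 FPKM, whereas GATA3 had gone from 0 to 2.68 FPKM and TFAP2A from 0 to 1.89 FPKM. These levels were all below the cutoff of 4 FPKM. Of the fibroblast markers, COL1A1 ranged from 4.18 to 11.3 FPKM over the libraries. The part of these shifts in the levels below was not tested, and in bulk RNA a loss of expressing cells and a loss of RNA per cell cannot be told apart.

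Glycolysis converts glucose to pyruvate in the cytosol, and lactate dehydrogenase reduces pyruvate to lactate, which regenerates NAD+. Glucose enters cells through facilitated transporters of the SLC2A (GLUT) family. Pluripotent stem cells are known for a high rate of glycolysis even in the presence of oxygen. Many genes of the pathway are known targets of hypoxia-inducible factors (HIFs), whose sites often hold the letters ACGTG, and of MYC, which binds CACGTG.

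Upstream sequences are shown for LDHA and PGK1, the genes that fell furthest at Day 4, and for PKM, which rose. Both starts of LDHA are given. They were chosen after the values were seen. Each runs 5′ to 3′ on the gene's strand and covers the 250 bases before a RefSeq transcript start in GRCh38.p14, a build other than that of the expression values. Capitals mark ACGTG or its reverse complement CACGT, and CACGTG holds both.
LDHA, first start, chr11:18394313-18394562, + strand: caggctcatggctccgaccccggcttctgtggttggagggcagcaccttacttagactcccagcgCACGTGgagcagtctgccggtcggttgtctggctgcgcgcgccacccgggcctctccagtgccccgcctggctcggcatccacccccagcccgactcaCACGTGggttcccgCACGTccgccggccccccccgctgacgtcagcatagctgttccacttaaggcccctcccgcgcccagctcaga
LDHA, second start, chr11:18396101-18396350, + strand: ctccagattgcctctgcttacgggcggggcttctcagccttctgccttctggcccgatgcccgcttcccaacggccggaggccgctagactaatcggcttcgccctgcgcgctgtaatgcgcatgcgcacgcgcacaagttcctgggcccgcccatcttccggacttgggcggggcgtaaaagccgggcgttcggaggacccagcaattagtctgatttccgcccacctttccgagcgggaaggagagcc
PGK1, chrX:78103998-78104247, + strand: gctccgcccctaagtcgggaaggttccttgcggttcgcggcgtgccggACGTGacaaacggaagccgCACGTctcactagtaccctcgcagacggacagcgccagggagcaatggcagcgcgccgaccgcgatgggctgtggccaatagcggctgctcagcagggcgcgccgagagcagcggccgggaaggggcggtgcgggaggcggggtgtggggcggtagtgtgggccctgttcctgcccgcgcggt
PKM, chr15:72231191-72231440, - strand: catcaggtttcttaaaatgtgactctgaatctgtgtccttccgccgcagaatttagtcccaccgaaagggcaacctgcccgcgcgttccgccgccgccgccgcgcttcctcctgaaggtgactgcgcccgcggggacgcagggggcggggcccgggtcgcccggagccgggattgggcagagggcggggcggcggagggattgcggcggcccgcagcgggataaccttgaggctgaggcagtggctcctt

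The first LDHA window held 5 overlapping or separate matches to ACGTG over both strands, the PGK1 window held 2, and the second LDHA window and the PKM window held none. Among windows not shown, those of HK2 held 2 and 4, those of ALDOA 1, 2 and 1, that of GAPDH 2 and a PFKP window 1. Of the 9 genes matched to the promoter table, 6 had at least 1 window with ACGTG (HK2, PFKP, LDHA, GAPDH, ALDOA and PGK1), and ENO1, SLC2A1 and PKM had none. The share was 21.7% over all 27305 genes of the table and 33.3% over the 1309 genes with a mean above 50 FPKM. Counted by window, 9 of the 16 windows held ACGTG against 18.5% of 35116 windows, and 4 held CACGTG against 6.34%. A match is a description of letters and not a binding site. Other letters that HIFs can bind, such as GCGTG, were not searched, so a window without ACGTG may still hold them.

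At Day 4 of Dox, 8 of the 10 genes had a lower level than at Day 0, and their Cufflinks intervals did not overlap in any of the 8. Scaling the libraries by the upper quartile made the intervals of SLC2A1, ALDOA and GAPDH overlap and left 5 lower genes apart, HK2, PFKP, PGK1, ENO1 and LDHA. LDHA fell to 0.325 and PGK1 to 0.440 of the level at Day 0, the only ones past 2-fold. PKM and SLC2A3 rose to 1.42 and 1.17 of Day 0. Of all genes above 4 FPKM in either library, 5652 of 10238 were lower, and 1220 of 1917 above 50 FPKM. Over the 10238 genes, 6.99% were lower with intervals apart and 5.15% were higher, and among the 1917 genes above 50 FPKM these shares were 17.5% and 9.29%. The cutoff of 2-fold with more than 4 FPKM in the higher library was passed downward by 7.54% and upward by 5.87% of the genes. On the scale of log2(FPKM + 1), used throughout, the 10 genes had a median log2 fold change of -0.48, against -0.06 over all genes above 4 FPKM. The untreated mutant line was also below Day 0 for these genes, and Day 4 against that line gave a median of -0.06.

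**Figure D1:**
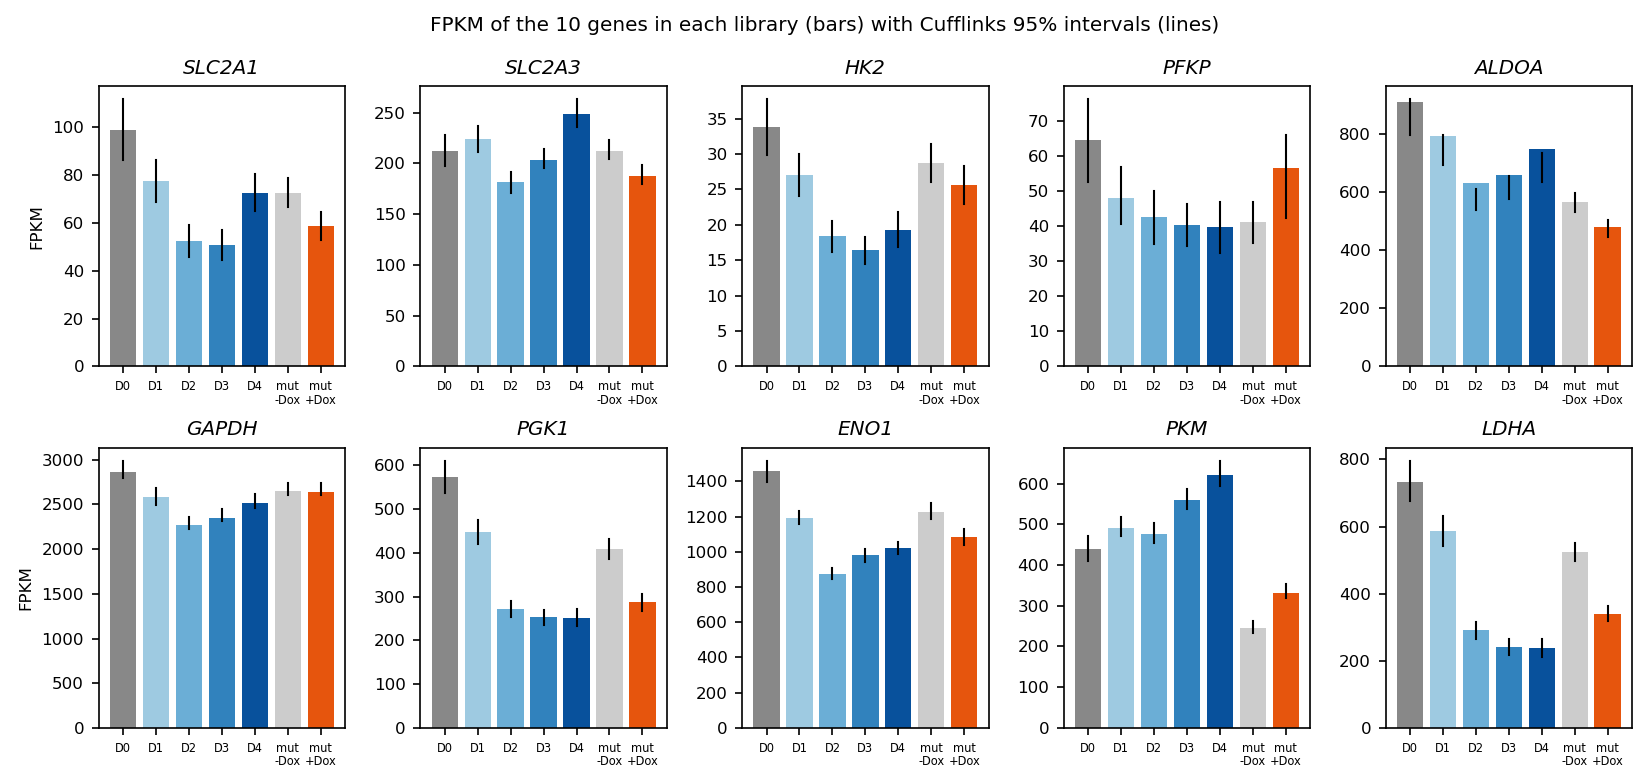
FPKM of each of the 10 genes (vertical axis, linear from 0, separate for each gene) in the 7 libraries: D0 to D4, JMJD3c-hESCs at Days 0 to 4, and the JMJD3c mut-hESCs without (mut -Dox) and with (mut +Dox) Dox. Bars are the values of 1 library each and lines the Cufflinks 95% intervals. LDHA goes from 733 to 238 FPKM over the course and PKM from 438 to 621 FPKM.

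The plot of FPKM by library shows each gene on its own scale. Of the glucose transporters, SLC2A1 (GLUT1, ENSG00000117394, chr1:43391052-43424530 in hg19) is the widely expressed basal transporter and SLC2A3 (GLUT3, ENSG00000059804, chr12:8071826-8088871) a high-affinity transporter. SLC2A1 was at 98.9 FPKM before Dox and at 77.5, 52.4, 50.7 and 72.5 FPKM after 1, 2, 3 and 4 days of it, and at 72.5 FPKM without and 58.6 FPKM with Dox in the mutant line. The level was lowest at Days 2 and 3, whose intervals overlapped, and from Day 3 to Day 4 it rose to 1.43-fold. As deposited, it was lower with intervals apart at Day 4 than at Day 0 (log2 fold change -0.44 ± 0.12, SE from the Cufflinks intervals) and in the mutant line with Dox (-0.30 ± 0.09). Day 4 and the untreated mutant line did not differ beyond their intervals.

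SLC2A3 was the higher of the pair in every library, at 212.7, 223.7, 181.3, 203.3 and 248.8 FPKM from Day 0 through Day 4, and at 211.9 and 187.8 FPKM in the mutant line without and with Dox. It fell at Day 2 and was at its highest at Day 4, 0.23 ± 0.06 above Day 0 on the log2 scale. In the mutant line with Dox it was lower (-0.17 ± 0.05). SLC2A1 made up 31.7% of the summed FPKM of the pair before Dox, 19.96% on Day 3 and 22.6% on Day 4, and 25.5% and 23.8% in the mutant line. SLC2A14, a close paralog of SLC2A3 with which reads may be shared, was between 5.30 and 15.6 FPKM.

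Hexokinase and phosphofructokinase catalyse early, regulated steps. HK2 (ENSG00000159399, chr2:75061108-75120486), the inducible hexokinase, was at 33.8 FPKM without Dox, then 27.1, 18.4, 16.4 and 19.3 FPKM on successive days, and at 28.7 and 25.6 FPKM in the mutant line. It was the least abundant of the 10 genes in each library, and its ratio to Day 0 was 0.485 at Day 3 and 0.572 at Day 4. The log2 fold change at Day 4 was -0.77 ± 0.13, and it was -0.55 ± 0.12 against the untreated mutant line, with intervals apart in both. The intervals overlapped in the mutant line (-0.16 ± 0.10). HK1, the constitutive hexokinase, was higher than HK2 in every library and fell from 110.9 FPKM at Day 0 to 52.2 FPKM at Day 4. The summed level of both went from 144.7 to 71.5 FPKM, and the share of HK2 was between 19.2% and 27.0% in all 7 libraries.

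PFKP (ENSG00000067057, chr10:3108525-3179904), the platelet-type phosphofructokinase, was at 64.4 FPKM before Dox and at 47.9, 42.5, 40.2 and 39.6 FPKM after 1, 2, 3 and 4 days of it, and at 41.0 and 56.4 FPKM in the mutant line. Its intervals were wide, from 42.1 to 65.9 FPKM in the mutant line with Dox. Days 2 to 4 were below Day 0 with intervals apart (-0.69 ± 0.19 at Day 4), and Days 1 to 4 overlapped among themselves. With Dox in the mutant line the point estimate was higher (0.45 ± 0.18), with overlapping intervals. PFKL, the liver-type enzyme, fell from 62.6 to 44.5 FPKM at Day 4, and PFKM, the muscle type, was at 64.7 and 47.1 FPKM with overlapping intervals.

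ALDOA (ENSG00000149925, chr16:30064411-30081741), which splits fructose bisphosphate, was at 908, 792, 629.7, 657 and 747 FPKM from Day 0 through Day 4, and at 565 and 481 FPKM in the mutant line. The FPKM lay above its own Cufflinks interval at Days 2, 3 and 4, and inside it in the other 4 libraries. ALDOA was lower at Day 4 than at Day 0 (-0.28 ± 0.07) but higher than in the untreated mutant line (0.40 ± 0.06), so the direction at Day 4 depended on the untreated line. It was also lower in the mutant line with Dox (-0.23 ± 0.06). ALDOC, the other expressed aldolase, fell past 2-fold from 46.0 to 15.6 FPKM at Day 4. ALDOA made up 94.5% to 98.0% of their sum.

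GAPDH (ENSG00000111640, chr12:6643093-6647537), which forms bisphosphoglycerate and NADH, was the most abundant of the 10 genes. Its levels from Day 0 through Day 4 were 2866, 2581, 2267, 2353 and 2518 FPKM, and 2647 and 2636 FPKM in the mutant line. The highest library was 1.26-fold above the lowest, the smallest range among the 10 genes. As deposited, the intervals of Days 1 to 4 were below and apart from that of Day 0 (-0.19 ± 0.03 at Day 4), but scaled by the upper quartile those of Days 1 and 4 overlapped that of Day 0 (-0.02 and -0.06), whereas the mutant line was at -0.01 ± 0.03 with overlapping intervals. The study normalised its qRT-PCR to GAPDH. The ratio of GAPDH to ACTB, another common reference gene, was 1.46 at Day 0 and 1.01 at Day 4, and 1.77 and 1.69 in the mutant line, ACTB being higher at Day 4 (2500.3 against 1960 FPKM). GENCODE release 44 on GRCh37 lists 65 pseudogenes of GAPDH and none to 6 for each of the other 9 genes. These pseudogenes were not analysed here, and how reads shared with them were counted is not given in the sources used here.

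PGK1 (ENSG00000102144, chrX:77359671-77384793), the first enzyme of the pathway to form ATP, was at 573 FPKM without Dox, then 447, 272.5, 252.8 and 252.1 FPKM on successive days, and at 408 and 287.6 FPKM in the mutant line. The fall took place by Day 2 and the last 3 days differed little, with overlapping intervals. The log2 fold change was -1.18 ± 0.07 at Day 4 and -0.50 ± 0.06 in the mutant line with Dox. At Day 4, 4.03% of the genes above 4 FPKM had a log2 fold change as low or lower, and 5.66% in the mutant line. Against the untreated mutant line, Day 4 was still lower (-0.69 ± 0.07), but Day 4 and the Dox-treated mutant line had overlapping intervals. The transgene carries a copy of the PGK promoter, but no copy of the PGK1 transcript is described.

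ENO1 (ENSG00000074800, chr1:8921061-8939308), the main enolase, was at 1457 FPKM before Dox and at 1194, 876, 982 and 1019.8 FPKM after 1, 2, 3 and 4 days of it, and at 1228 and 1081 FPKM in the mutant line. It was lowest at Day 2 and rose from Day 2 to Day 3 with intervals apart. The log2 fold change was -0.51 ± 0.04 at Day 4 and -0.18 ± 0.04 in the mutant line with Dox, both with intervals apart. ENO1 made up 96.3% to 98.7% of the sum of ENO1 and ENO2.

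PKM (ENSG00000067225, chr15:72491370-72524164) encodes the pyruvate kinase isoforms PKM1 and PKM2, which the gene-level FPKM does not separate. It was at 438, 489.9, 475, 559 and 621 FPKM from Day 0 through Day 4, and at 245 and 331 FPKM in the mutant line. PKM was the only gene of the 10 that was higher with Dox with intervals apart in both lines, by 0.50 ± 0.06 and 0.43 ± 0.06 on the log2 scale. The lines also differed without Dox, PKM being at 0.559 of the Day 0 level in the untreated mutant line. Each JMJD3c-hESC library was above both mutant libraries.

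LDHA (ENSG00000134333, chr11:18415935-18429972), the lactate dehydrogenase subunit that favours lactate formation, was at 733 FPKM without Dox, then 586, 290.5, 242 and 238 FPKM on successive days, and at 524 and 341 FPKM in the mutant line. The steepest step was from Day 1 to Day 2 (ratio 0.496), and the intervals of Days 2 to 4 overlapped. LDHA had the lowest log2 fold change of the 10 genes at Day 4 (-1.62 ± 0.10) and in the mutant line (-0.62 ± 0.06), where 1.64% and 3.55% of the genes above 4 FPKM were as low or lower. At Day 4 it was also past 2-fold below the untreated mutant line (ratio 0.455) and at 0.700 of the Dox-treated mutant line. LDHB, the subunit that favours pyruvate formation, was between 832 and 909 FPKM, and its intervals at Day 0 and Day 4 overlapped. The share of LDHA in the sum of LDHA and LDHB thus went from 45.7% through 40.1%, 24.4% and 21.0% to 22.3% over Days 0 to 4, and from 37.2% to 28.5% in the mutant line. The ratio of PKM to LDHA rose from 0.598 at Day 0 to 2.61 at Day 4 and from 0.468 to 0.972 in the mutant line.

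**Figure D2:**
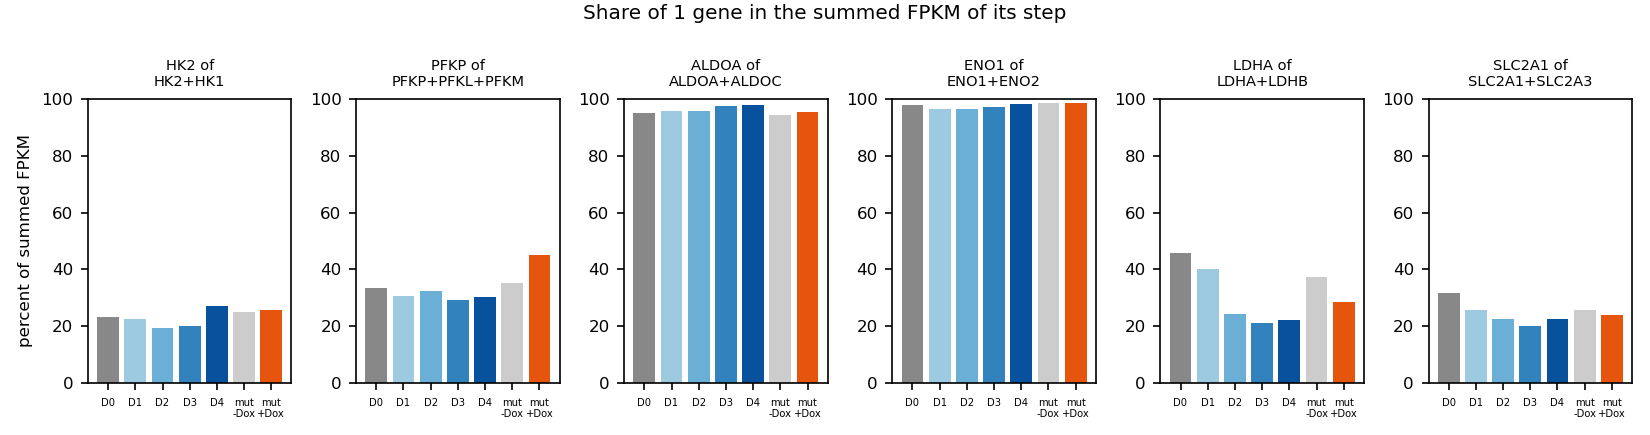
Share (percent, vertical axis from 0 to 100) of 1 gene in the summed FPKM of the genes named above each panel, in the 7 libraries (D0 to D4, JMJD3c-hESCs; mut, JMJD3c mut-hESCs without and with Dox). The LDHA share goes from 45.7% to 22.3% over the course, whereas ALDOA and ENO1 stay above 94% and 96% of their sums.

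In the plot of isoform shares, LDHA and SLC2A1 lost share at Day 4, whereas ALDOA and ENO1 kept nearly all of theirs. The share of PFKP in the 3 phosphofructokinases was 33.6% at Day 0 and 30.2% at Day 4 and went from 35.2% to 44.9% in the mutant line. As each panel rests on 1 library per condition, the shares carry no replicate error.

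The time course was not a steady decline. At Day 1, 8 genes were lower than at Day 0 (5526 of 10185 over all genes, or 1318 of 1855 above 50 FPKM). Of the 8, 5 had intervals apart (background 2.53%, and 1.43% higher, or 9.97% and 1.89% among genes above 50 FPKM). None was past 2-fold (background 3.24% lower, 3.46% higher), and the median was -0.30 on the log2 scale. At Day 2, 9 were lower with intervals apart (background 4.5%, and 2.72% higher, or 14.4% and 3.37% above 50 FPKM), 2 of them past 2-fold (background 4.23%, and 3.88% higher), with a median of -0.66. At Day 3, 8 were lower and PKM was higher with intervals apart (background 4.33% and 4.44%, or 12.2% and 6.89% above 50 FPKM), 3 were past 2-fold, HK2 being added to LDHA and PGK1 (background 4.46%, and 4.72% higher), and the median was -0.62. Scaling by the upper quartile or by the reference genes took PGK1 at Day 2 and HK2 at Day 3 back within 2-fold. Scaled by the upper quartile, PGK1 and ENO1 were lower and SLC2A3 and PKM higher with intervals apart at Day 1, and at Day 2 SLC2A3 and PFKP were no longer apart while PKM was higher. Scaled by the median ratio, SLC2A1 overlapped at Day 1 and PKM was higher with intervals apart. These comparisons share the Day 0 library. Between neighbouring days, 5 of the 10 were lower with intervals apart from Day 0 to Day 1 and 8 from Day 1 to Day 2 (background 1.82%, and 1.5% higher, or 4.56% and 3.29% above 50 FPKM). From Day 2 to Day 3, as deposited, none was lower with intervals apart and SLC2A3, ENO1 and PKM were higher (background 2.16%, and 1.27% lower, or 5.52% and 1.59% above 50 FPKM). Under each of the 3 other scalings SLC2A3 overlapped and LDHA was lower with intervals apart. From Day 3 to Day 4 none was lower with intervals apart and SLC2A1, SLC2A3, GAPDH and PKM were higher (background 1.65%, and 2.63% lower, or 3.74% and 5.14% above 50 FPKM). Scaling by the reference genes turned GAPDH lower and left SLC2A1 and SLC2A3 apart, whereas scaling by the median ratio added ALDOA and ENO1. The 10 genes together took 1.39%, 1.30%, 1.03%, 1.05% and 1.14% of the summed FPKM of all genes over Days 0 to 4.

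The JMJD3c mut-hESCs received Dox with a form that lacks catalytic activity. KDM6B was at 454 FPKM in them with Dox and at 282 FPKM at Day 4 in JMJD3c-hESCs. Whether the changes need the catalytic activity was not tested. With Dox, 8 of the 10 genes were lower (4777 of 9724 over all genes, or 898 of 1770 above 50 FPKM) and 2 higher than without. The counts equal those at Day 4 in the JMJD3c-hESCs, but not the genes. PFKP and PKM were higher in the mutant line and SLC2A3 and PKM in the JMJD3c-hESCs. GAPDH, counted as lower in the mutant line, was at -0.01. Intervals were apart for 6 lower genes (SLC2A1, SLC2A3, ALDOA, PGK1, ENO1 and LDHA) and 1 higher gene (PKM), against a background of 1.68% and 1.46%, or 4.12% and 3.39% among genes above 50 FPKM. None passed 2-fold (background 1.52% lower and 1.22% higher), and the median log2 fold change was -0.18 against 0.00 over all genes above 4 FPKM. The share of the 10 genes in the summed FPKM was 1.30% without and 1.18% with Dox. The comparisons of Dox within each line share no library. SLC2A1, ALDOA, PGK1, ENO1 and LDHA, 5 of the 10, were lower with intervals apart in both as deposited, as were 0.657% of the 9442 genes above 4 FPKM in both comparisons and 2.12% of the 2074 genes above 50 FPKM. Scaled by the upper quartile, an alternative chosen for this count after seeing the data, 3 remained, PGK1, ENO1 and LDHA. PKM was higher in both, as were 0.381% of the genes. The differences between the lines in these log2 fold changes were -0.997 for LDHA, -0.68 for PGK1, -0.33 for ENO1, -0.14 for SLC2A1, -0.05 for ALDOA and 0.07 for PKM (JMJD3c minus mutant) and could not be tested without replicates.

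**Figure D3:**
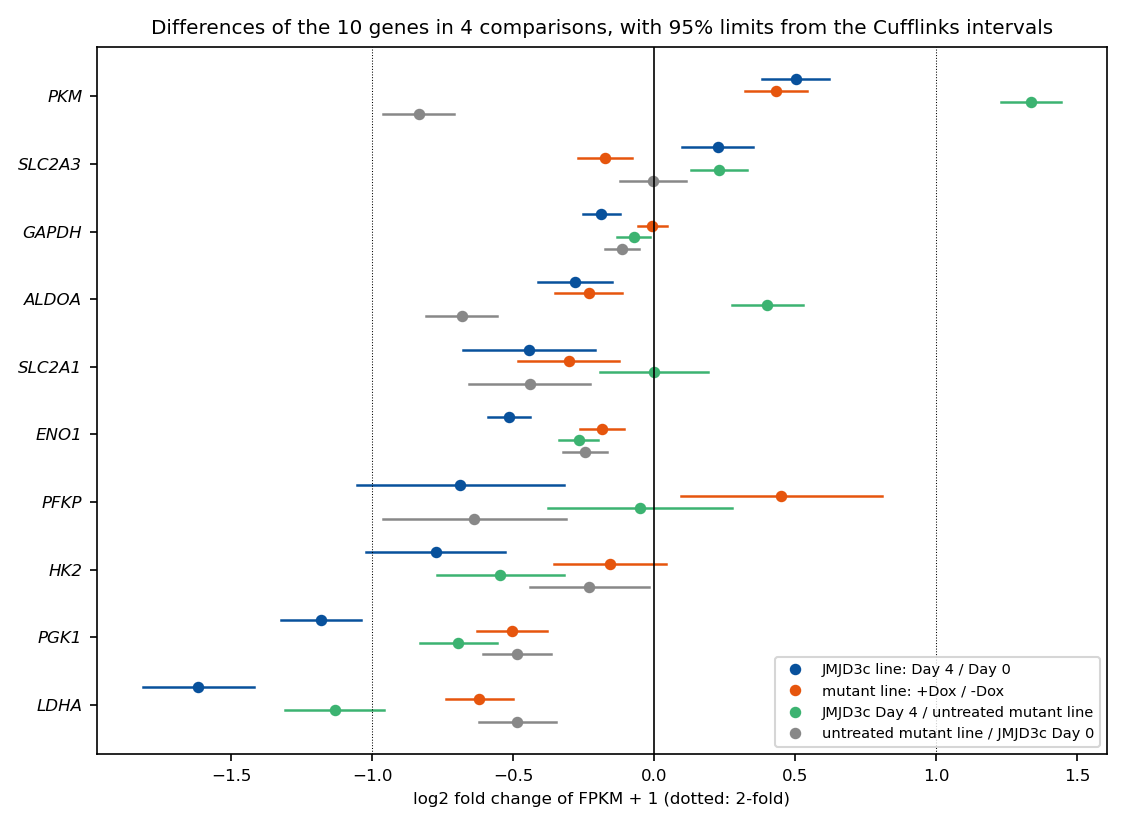
Log2 fold change of FPKM + 1 (horizontal axis) of the 10 genes in 4 comparisons, given by colour. Points are values from 1 library against 1, lines are 95% limits from the Cufflinks intervals, and dotted lines mark 2-fold. LDHA and PGK1 lie left of 0 in all 4 comparisons, as do SLC2A1, HK2, GAPDH and ENO1, SLC2A1 and GAPDH in part only just. PKM lies right of 0 with Dox in both lines and left of 0 in the untreated mutant line against Day 0.

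The untreated libraries of the 2 lines also differed, which bears on every comparison with Day 0. In the mutant line without Dox, all 10 genes were lower than at Day 0 as deposited (5442 of 10041 over all genes, or 1140 of 1954 above 50 FPKM). Intervals were apart for 8 of them (background 6.94% lower and 6.78% higher, or 21.3% and 14.5% among genes above 50 FPKM), and none was past 2-fold (background 7% lower and 2.77% higher). SLC2A3 was higher under each of the 3 other scalings, and GAPDH under scaling by the reference genes, which left ALDOA, PGK1, PKM and LDHA lower with intervals apart. The median was -0.46, close to the -0.48 of Day 4 against Day 0, with which it shares the Day 0 library. Of the 8 genes lower at Day 4, the untreated mutant line was also below Day 0 with intervals apart for 7, all but HK2. Against the untreated mutant line, Day 4 was lower with intervals apart for HK2, PGK1, ENO1 and LDHA (background 9.95%, or 21.2% above 50 FPKM) and higher for SLC2A3, ALDOA and PKM (background 8.65%, or 19% above 50 FPKM). Scaled by the reference genes, PKM was the only one higher with intervals apart, SLC2A3 reaching -0.00, and GAPDH was also lower. LDHA was past 2-fold lower (background 3.88%) and PKM past 2-fold higher (background 7.05%). The plot of log2 fold changes shows LDHA and PGK1, like HK2 and ENO1, lower than either untreated library at Day 4. For ALDOA and PKM the untreated lines differed by more than either line did with Dox (-0.68 ± 0.06 and -0.84 ± 0.06).

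Between the Dox-treated lines at Day 4, SLC2A1, SLC2A3, ALDOA and PKM were higher in JMJD3c-hESCs with intervals apart (background 7.58%, or 18% above 50 FPKM) and HK2 and LDHA were lower (background 8.67%, or 20.2% above 50 FPKM). Scaled by the reference genes, SLC2A1 overlapped and PFKP, GAPDH, PGK1 and ENO1 were also lower with intervals apart. None passed 2-fold (background 6.57% higher and 2.99% lower), and the median log2 fold change was -0.08. PKM was at 621 against 331 FPKM (0.91 ± 0.05). GAPDH, PGK1 and ENO1, with log2 fold changes of -0.07, -0.19 and -0.08, and PFKP (-0.50 ± 0.20) had overlapping intervals as deposited.

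The other genes of the pathway were read from lists of isoforms, transporters and regulators. Of 19 further glycolysis genes, 11 were above 4 FPKM at Day 0 or Day 4. All 11 were lower at Day 4, HK1, GPI, PFKL, ALDOC, TPI1 and PGAM1 with intervals apart (background 6.99%, or 17.5% above 50 FPKM) and HK1 and ALDOC past 2-fold (background 7.54%), with a median of -0.45. Over all genes, 5652 of 10238 above 4 FPKM and 1220 of 1917 above 50 FPKM were lower. Scaled by the upper quartile, TPI1 and PGAM1 overlapped. GPI, which isomerises glucose 6-phosphate, fell from 229 to 117 FPKM and PGAM1, the phosphoglycerate mutase, from 293 to 224.7 FPKM. TPI1, the triose isomerase, was at 418 and 338 FPKM, but its FPKM lay above its own Cufflinks interval in all 7 libraries. That of PGAM1 did so at Days 1 to 3 and in both libraries of the mutant line. In the mutant line, 9 of 11 were lower with Dox (4777 of 9724 over all genes), none with intervals apart as deposited, and the median was -0.10. As with the 10 genes, 10 of 11 were lower in the untreated mutant line than at Day 0 (5442 of 10041 over all genes), 3 of them with intervals apart (background 6.94%). Of the 11 other hexose transporters, 4 were above 4 FPKM at Day 0 or Day 4 and none had intervals apart.

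Lactate leaves cells through monocarboxylate transporters. SLC16A3 (MCT4), the exporter of glycolytic cells, was at 32.8 FPKM before Dox and at 30.7, 4.48, 12.1 and 4.45 FPKM after 1, 2, 3 and 4 days of it, and at 8.72 and 6.35 FPKM in the mutant line. Day 4 was 0.136 of Day 0 with intervals apart, but the untreated mutant line was also below Day 0, and its interval overlapped that of Day 4. SLC16A1 (MCT1) was between 103 and 160.3 FPKM and BSG, the chaperone of both, between 405 and 508 FPKM, neither with intervals apart at Day 4 or in the mutant line. Of the enzymes that set fructose 2,6-bisphosphate, PFKFB3 was at 18.8 and 10.1 FPKM at Day 0 and Day 4 and PFKFB4 at 12.95 and 4.49 FPKM, past 2-fold but with overlapping intervals.

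Genes known to respond to hypoxia outside glycolysis were mostly lower with Dox than without it in the same line, as LDHA and PGK1 were. Of 13, 11 were above 4 FPKM at Day 0 or Day 4. At Day 4, 10 were lower, BNIP3, DDIT4, KDM3A and P4HA1 with intervals apart (background 6.99%) and past 2-fold, P4HA2 past 2-fold with overlapping intervals (background 7.54%), and the median was -0.79, against 5652 of 10238 lower and a median of -0.06 over all genes. Scaled by the upper quartile, KDM3A overlapped. BNIP3, a mitophagy receptor, was at 121.6, 93.1, 43.5, 35.2 and 27.6 FPKM from Day 0 through Day 4, and at 68.5 and 23.4 FPKM in the mutant line. DDIT4, an inhibitor of mTORC1, was at 89.8, 52.7, 11.6, 11.3 and 11.9 FPKM at Days 0 to 4 and at 42.4 and 9.08 FPKM in the mutant line. P4HA1, a collagen prolyl hydroxylase, was at 33.4, 29.8, 18.6, 16.1 and 12.7 FPKM and at 25.7 and 14.5 FPKM. In each of these genes the untreated library of a line was the highest of that line.

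In the mutant line, 9 of 10 hypoxia-responsive genes were lower with Dox, BNIP3, DDIT4 and P4HA1 with intervals apart (background 1.68%), and the median was -0.54, against 4777 of 9724 lower and a median of 0.00 over all genes. These 3 were lower with intervals apart in both lines, as were 0.657% of the genes. ADM, encoding adrenomedullin, went the other way in JMJD3c-hESCs, from 9.92 FPKM before Dox to 18.8 on Day 3 and 46.3 FPKM on Day 4, and was at 18.9 and 12.3 FPKM in the mutant line. Without Dox, 10 of 11 of the hypoxia-responsive genes were lower in the mutant line than at Day 0 (5442 of 10041 over all genes), with a median of -0.82. Between the Dox-treated lines at Day 4, 6 of 8 were higher in JMJD3c-hESCs (4812 of 9991 over all genes), with a median of 0.29. LDHA was lower there. Against the untreated mutant line, Day 4 was lower for 7 of 10 (5180 of 10034 over all genes) and higher for 3, with a median of -0.47.

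**Figure D4:**
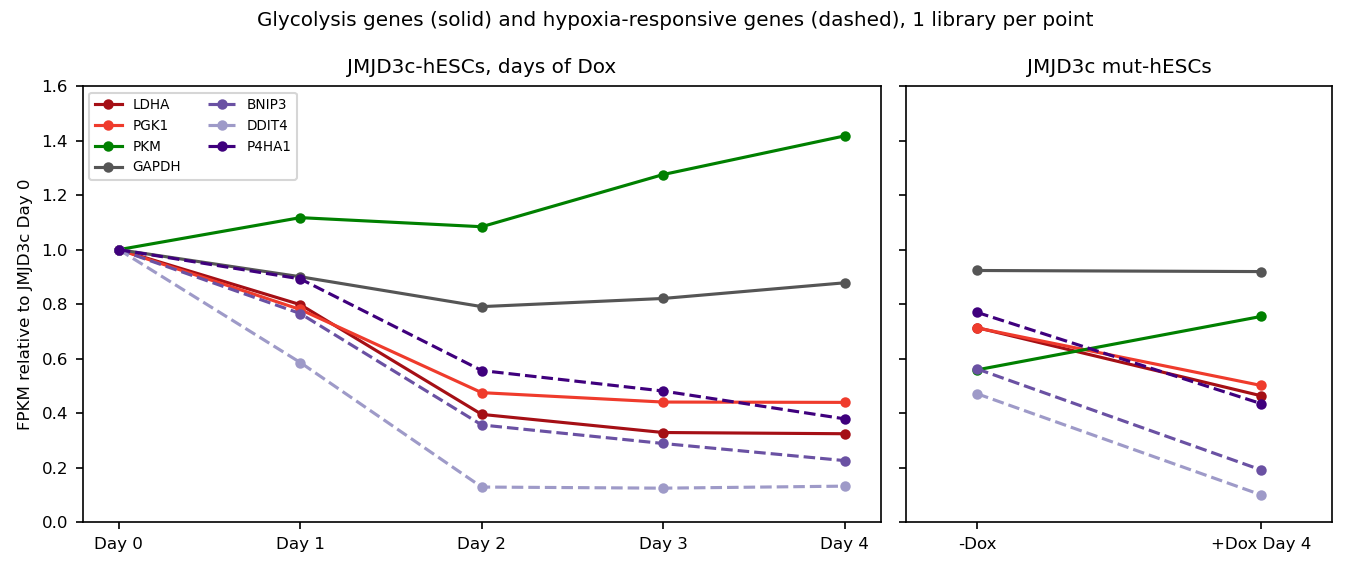
FPKM relative to Day 0 of the JMJD3c-hESCs (vertical axis, linear from 0) over the days of Dox (left) and in the JMJD3c mut-hESCs without and with Dox (right). Each point is 1 library, solid lines join glycolysis genes and dashed lines hypoxia-responsive genes. LDHA falls to 0.325 and PGK1 to 0.440 of Day 0, while GAPDH stays at or above 0.791.

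The plot of levels relative to Day 0 sets LDHA and PGK1 beside BNIP3, DDIT4 and P4HA1, with PKM and GAPDH for contrast. BNIP3, DDIT4 and P4HA1 are the hypoxia-responsive genes that were lower with intervals apart in both lines, and the rest of that list is not plotted. The right panel of the plot starts below 1 for all 7 genes, since the untreated mutant line was below Day 0.

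Of the HIF regulators, HIF1A, the oxygen-regulated subunit, was between 59.0 and 83.3 FPKM and highest in the mutant line, without intervals apart with Dox in either line. EPAS1, encoding HIF-2α, rose from 1.47 FPKM at Day 0 to 7.58 FPKM at Day 4 and was at 2.21 and 1.76 FPKM in the mutant line. EGLN1, a prolyl hydroxylase that marks HIF for degradation, fell from 7.25 to 2.68 FPKM at Day 4 and was at 5.06 and 4.48 FPKM in the mutant line. Transcript levels do not give the amount of HIF protein.

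Among the regulators of glucose uptake, 6 of 7 were above 4 FPKM and all 6 were lower at Day 4 (5652 of 10238 over all genes). TXNIP, MYC, LIN28A and LIN28B had intervals apart (background 6.99%), LIN28A overlapping under scaling by the median ratio or the upper quartile. MYC was at 53.3 FPKM without Dox, then 27.1, 19.8, 21.3 and 22.4 FPKM on successive days, and at 45.8 and 36.2 FPKM in the mutant line with overlapping intervals. TXNIP, which restrains glucose uptake, was at 47.3 and 23.9 FPKM at Day 0 and Day 4 and at 22.8 and 19.1 FPKM in the mutant line. As deposited, LIN28A alone of this list had intervals apart in the mutant line, at 529.7 FPKM without and 484 FPKM with Dox.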

How the data were processed

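RNA-seq of 7 libraries was analysed, 1 per condition. The authors prepared poly(A) RNA with a directional kit, sequenced 150 bases single-ended on a MiSeq, mapped reads to hg19 with TopHat 2.0.13 and calculated expression with Cufflinks 2.1.1, and they deposited FPKM per gene with the lower and upper bounds of its 95% interval in FPKM. The gene annotation is not given in the sources used here. The submitters' processing notes also name CASAVA 1.4.

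Libraries were joined on gene identifier and position. Where entries shared a name, that of the highest mean was kept. All genes were compared as log2(FPKM + 1), as ratios (2-fold, with more than 4 FPKM in the higher library) and by whether the Cufflinks intervals overlapped, with more than 4 FPKM in either. The SE of a log2 fold change was taken from the interval widths and covers the estimate within libraries only. Without replicates no test was made. Mapped reads were estimated from what 1 read is worth in 670 single-exon genes of low FPKM. Motifs were searched on both strands. Values were calculated with Python 3.11.15, numpy 2.4.6, pandas 2.3.3 and matplotlib 3.10.9, and the comparison was tested on simulated data.

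All members were named in every library. From each other list, genes past 2-fold with intervals apart at Day 4 (up to 4), the 3 most abundant genes and alternative isoforms were to be named, and others are named where a count of theirs is given. The members and lists were chosen with earlier results of these data known. Alternatives changed the scaling, the pseudocount, the cutoffs, the interval width, the shared names and the untreated reference.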

Additional observations from a re-analysis of the deposited data

Results flagged for a closer look

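SLC2A3 and PFKP differed in direction between the lines. The log2 fold change of SLC2A3 with Dox was 0.23 in JMJD3c-hESCs at Day 4 and -0.17 in JMJD3c mut-hESCs, a difference of 0.40. That of PFKP was -0.69 and 0.45, a difference of -1.14, and its intervals overlapped in the mutant line. Neither difference was tested, since each line had 1 library per condition.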

How the results depend on the processing

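No paired analysis was possible because each condition has 1 library. Of 155 alternative values for the 10 genes, 126 stayed close to the reported value, 28 moved and 1 reversed. A count within 1.5-fold of the reported one was called close. The counts add higher and lower genes, so a gene that changed direction could leave a count close. At Day 4 the 2 genes past 2-fold were both lower against Day 0. Against the untreated mutant line 1 was lower and 1 higher. Intervals were apart for 4 lower and 3 higher genes against that line, and for 8 and 2 against Day 0. The 126 include 7 each from the cutoffs of 1 and 10 FPKM and 21 from summed entries, which could change little or nothing. With the untreated mutant line as reference, the median of the 10 genes (log2 fold change) was 0.11 at Day 1, against -0.30 with Day 0, and -0.34, -0.25 and -0.06 at Days 2, 3 and 4, the number past 2-fold at Day 2 went from 2 to 0 and the number with intervals apart at Day 1 from 5 to 2. Scaling by the upper quartile gave medians of -0.17, -0.52, -0.51 and -0.35 at Days 1 to 4 and -0.37 between the untreated lines, and the number lower with intervals apart in both lines went from 5 to 3, an alternative chosen after seeing the data. Scaling by the reference genes gave -0.57 at Day 2, -0.32 between the Dox-treated lines and -0.27 between the untreated lines, where intervals were then apart for 5 genes. It moved the median of all genes by over 0.1 between lines. Either scaling left 1 gene past 2-fold at Day 2. At a ratio of 1.5, 6, 5 and 4 genes passed at Days 2, 3 and 4, 2 between the Dox-treated lines, 1 in the mutant line and 3 between the untreated lines. With the bounds of the intervals doubled in distance, 1 gene was apart at Day 1, 6 at Day 4, 3 between the Dox-treated lines, 3 in the mutant line and 5 between the untreated lines. The pseudocount, median-ratio scaling and leaving out 1 gene at a time, the last also chosen after seeing the data, moved none of these medians and counts. Median-ratio scaling did change which genes were counted at Day 1, where SLC2A1 overlapped and PKM was higher with intervals apart. The FPKM cutoff could not move a count, since none of the 10 genes was below 16.4 FPKM in any library. Summing entries could alter only PGK1, the only one with 2 entries, and moved none either. The cause of these shifts was not tested.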

Other observations

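Of the pathways that draw on glycolysis, all 7 pentose phosphate genes were above 4 FPKM. TKT and TALDO1, of the non-oxidative branch, fell at Day 4 with intervals apart (background 6.99%, or 17.5% above 50 FPKM), from 438 to 383 and from 171.6 to 119.8 FPKM. For TKT the upper bound at Day 4, 406.2 FPKM, was close to the lower bound at Day 0, 409.7 FPKM. The calls in this section are as deposited and were not repeated under the other scalings. PGD, of the oxidative branch, was at 192 and 162 FPKM, with overlapping intervals. None of the 7 had intervals apart in the mutant line. Of 10 genes of pyruvate dehydrogenase and its regulators above 4 FPKM, PDK3, an inhibitory kinase, fell at Day 4 with intervals apart (background 6.99%), from 13.4 to 4.12 FPKM. PDK2 was at 10.5 and 3.28 FPKM with overlapping intervals. PDHA1, PDHB and DLD, the most abundant, were at 120.8, 81.9 and 51.4 FPKM at Day 0 and 115.2, 80.7 and 57.1 FPKM at Day 4. The FPKM of PDHA1 lay above its own Cufflinks interval at Days 2 to 4 and in the untreated mutant line. Of the gluconeogenesis genes, 4 were above 4 FPKM at Day 0 or Day 4 and none had intervals apart, G6PC3 and PCK2 being at 67.8 and 28.3 FPKM at Day 0 and 72.2 and 23.4 FPKM at Day 4.

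Of the 12 reference genes other than GAPDH, ACTB, B2M and YWHAZ were higher at Day 4 with intervals apart (background 5.15%, or 9.29% above 50 FPKM). SDHA was lower with intervals apart (background 6.99%, or 17.5% above 50 FPKM), and none of the 12 had intervals apart in the mutant line. RPLP0 was at 1507 FPKM at Day 0 and 1534 FPKM at Day 4, and at 894 and 853 FPKM in the mutant line.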
